A study of Mus musculus with 48 samples.

Results

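The vesicle exocytosis machinery was followed through enteroendocrine cells of the mouse gut. It was taken as the protein-coding genes named as synaptotagmins (Syt), syntaxins (Stx), syntaxin-binding proteins (Stxbp), vesicle-associated membrane proteins (Vamp), numbered Snap genes, complexins (Cplx), Rab3-interacting molecules (Rims), Unc13 proteins, Rab3 GTPases, Doc2 proteins and the Cadps genes. The symbols alone chose 72 genes out of 21942 protein-coding genes in the table, of which 57 had enough counts to be tested among 15126 genes. Enteroendocrine cells were compared between duodenum, ileum and colon, and between mice after vertical sleeve gastrectomy (VSG) and mice after a sham operation, to ask whether the cells themselves differ after surgery. The animals were lean male C57BL6 mice, about 20 weeks old at surgery, that all carried Neurod1-cre and an EYFP reporter. The VSG group lost about 70% of the stomach, the S_al group had a sham operation and free access to food, and the S_wm group had a sham operation and was fed to match the weight of the VSG group. All had standard chow apart from liquid diet around the operation, and all received glucose by mouth (3 g/kg) about 15 min before tissue was taken, about 6 weeks after the operation. Duodenum stands for the first 5 cm of the small intestine, ileum for its last 15 cm, and colon for the large intestine. EYFP-positive, CD45-negative cells were sorted, so that the cells studied were those in which the Neurod1 driver had been active. There were 48 libraries from 17 mice (6 S_al, 5 S_wm and 6 VSG), 16 from each region, and 15 mice gave all 3 regions.

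Enteroendocrine cells release peptide hormones and serotonin by fusing dense-core vesicles with the plasma membrane when calcium rises. Fusion is driven by SNARE proteins, with a Vamp on the vesicle pairing with a syntaxin and a Snap protein on the target membrane. Stxbp proteins hold and guide the syntaxins, Unc13 and Cadps proteins prime the vesicles, Rab3 and Rims proteins dock them, complexins clamp the assembled SNAREs, and synaptotagmins are the calcium sensors. The same families serve synapses, and several have one form best known from neurons and another from epithelial or other secretory cells. Most of the syntaxins with high numbers, together with Snap29 and Snap47, work on Golgi and endosomal membranes rather than at the cell surface. Snap91 is a clathrin adaptor that shares only the name.

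Libraries held between 4648651 and 17182463 counts (median 6713018) and detected between 17420 and 22231 genes. Levels are given as CPM, which are counts relative to the library total scaled by the trimmed mean of M-values (TMM), and per kilobase of exon where genes are set against each other. The summed level of 8 enteroendocrine markers (Neurod1, Chga, Chgb, Scg2, Scg3, Pcsk1, Pcsk1n and Cpe) had a median of 56350 CPM in duodenum, 43990 CPM in ileum and 47390 CPM in colon, and none of the 8 was at 0 in any region. Markers of other cells, and of enteroendocrine subtypes, moved with the region. The 3 serotonin cell markers had medians of 3058, 1678 and 3209 CPM in duodenum, ileum and colon, lowest in ileum as Snap25, Vamp2 and Cadps were, and the 3 markers of L and I cells 4567, 2094 and 1326 CPM. The 6 enterocyte markers had medians of 5465, 6871 and 394 CPM in duodenum, ileum and colon, the 5 goblet markers 3418, 3801 and 9002 CPM, the 6 immune markers 124, 894 and 15.6 CPM, the 4 Paneth markers 208, 1832 and 15.04 CPM, the 4 crypt markers 1120, 2005 and 110.5 CPM, and the 4 colonocyte markers 39.4, 78.7 and 1300 CPM. The part of these cells and subtypes in the differences between regions was not tested. In such sorted pools fewer cells of a type and less RNA per cell cannot be told apart. The duodenum library of S_wm mouse 27 stood apart, with 12040 CPM of enteroendocrine markers against 38790 to 74350 CPM in the other 15 duodenum libraries, and 34450 CPM of enterocyte markers against 4321 to 11730 CPM. The first library index was also tied to the region, since 12 duodenum libraries carried an index that no other region had and 11 of 16 colon libraries carried one shared with a single ileum library. For mouse 12 the tissue label and the sample code were crossed between ileum and colon, and the tissue label was followed. With it the summed enterocyte markers of all ileum libraries (3401 to 11530 CPM) and all colon libraries (232 to 589 CPM) did not overlap, and without that mouse's ileum and colon libraries 19, 35 and 32 members were called in the contrasts given below as 22, 35 and 34. Values with that index as a term in the fit, or within one index, are therefore given beside many region results. They are not given for pair ratios, family shares or the other genes of the pathway.

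Syt7, a high-affinity calcium sensor of dense-core vesicles, and Cplx2 were the most abundant members per kilobase in every region. In duodenum Cplx2 stood at 66.5 ± 15.9 CPM per kb (SD, n = 16) and Syt7 at 57.5 ± 16.9 CPM per kb. In ileum the order was the same, with 58.9 ± 12.3 and 49.1 ± 16.4 CPM per kb, and in colon it turned, with Syt7 at 81.2 ± 21.1 and Cplx2 at 51.81 ± 15.98 CPM per kb. Within duodenum and ileum the gap between the pair was smaller than the spread over libraries. Rab3d and Syt13 took the next places in duodenum (44.7 ± 7.6 CPM per kb for Rab3d and 46.1 ± 10.4 for Syt13). In colon Rab3d came next at 44.2 ± 4.0 CPM per kb, then Syt5 at 29.04 ± 8.81 and Syt13 at 25.3 ± 8.1. The classical synaptic sensor Syt1 was scarce, with a mean of 3.26 CPM in duodenum and less in the other regions. The 15 members left out of the test had between 7 and 206 counts over all 48 libraries. Among them were Cplx3, Cplx4, Doc2a, Doc2g, Rims1, Stx11, Stx19, Syt6, Syt8, Syt9, Syt10, Syt15, Vamp5 and Vamp9.

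**Figure D1:**
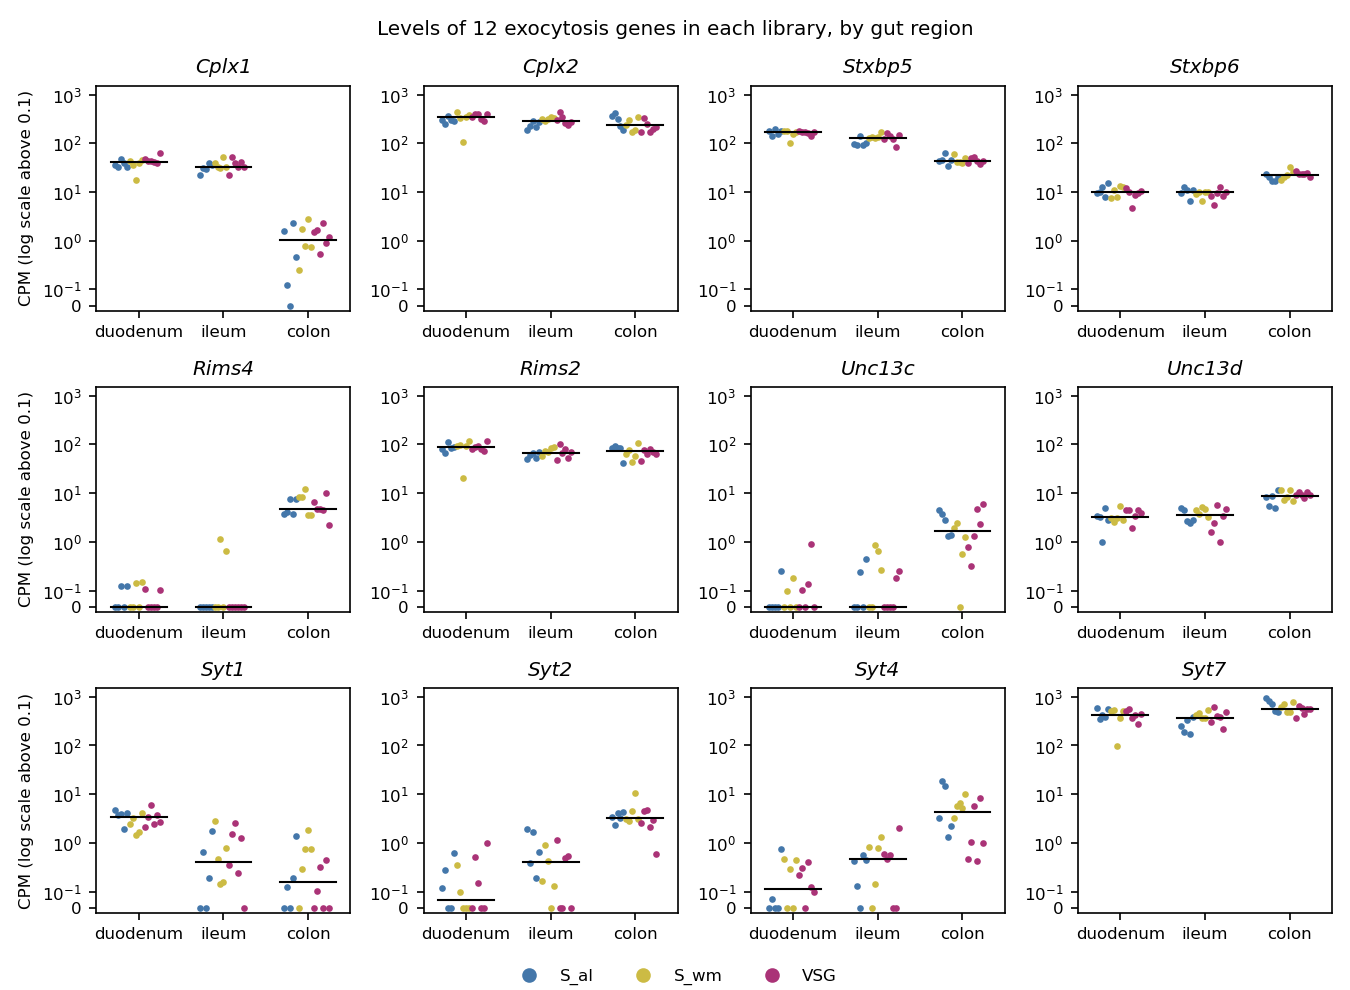
Level of 12 members in each library (1 point each, coloured by surgery group) in CPM on an axis that is logarithmic above 0.1, with the median of 16 libraries as a line. The colon points of Cplx1 lie between 0 and 2.79 CPM, below all other libraries, and those of Rims4 between 2.20 and 12.3 CPM, above all others.

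Between duodenum and ileum most of the members that differed were lower in ileum. In edgeR's quasi-likelihood test with Benjamini-Hochberg adjustment over all genes, 18 of the 57 tested members were lower in ileum, against 16.6% of all genes tested, and 4 were higher, against 17.2% of all genes. The median log2 fold change of the members was -0.22, while that of all genes tested was near 0. Between duodenum and colon 15 members were higher in colon, against 26.8% of all genes, and 20 were lower, against 28.3%. Between ileum and colon 19 were higher in colon, against 23.8% of all genes, and 15 were lower, against 25.4%. Of the 57 members, 12 were called in no region contrast, among them Rab3a, Rab3d, Rims2, Vamp8 and Stx4a, and 31.3% of all genes tested were called in none. The index term lowered the counts to 6 members between duodenum and ileum, to 21 in colon against duodenum and to 28 in colon against ileum. How many of all genes were called with that term is not given here. Within one index, 3 of 51 members differed between 7 ileum and 4 duodenum libraries, against 805 of 13162 genes tested. In another, 12 of 52 members differed between 4 colon and 8 ileum libraries, against 3641 of 13406 genes. The 4 duodenum libraries included that of S_wm mouse 27 and none from VSG mice, while the ileum libraries included VSG mice. Fits with the index were not repeated without the library of mouse 27. The ileum against duodenum results below thus rest on libraries whose region and index cannot be told apart, and the calls with colon held only in part. The index term ended 18 of the 35 calls in colon against duodenum, those of Cadps2, Cplx2, Doc2b, Rab3b, Rab3c, Snap23, Snap91, Stx16, Stx17, Stx1a, Stx8, Syt1, Syt11, Syt13, Syt2, Syt4, Unc13b and Unc13c. It ended 7 of 34 in colon against ileum, those of Rims3, Snap29, Snap91, Stx12, Stx1a, Stx3 and Syt12. The 12 called between colon and ileum within one index were Cadps, Cplx1, Rims4, Stx17, Stxbp5, Stxbp6, Syt13, Syt14, Unc13b, Unc13d, Vamp3 and Vamp7.

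**Figure D2:**
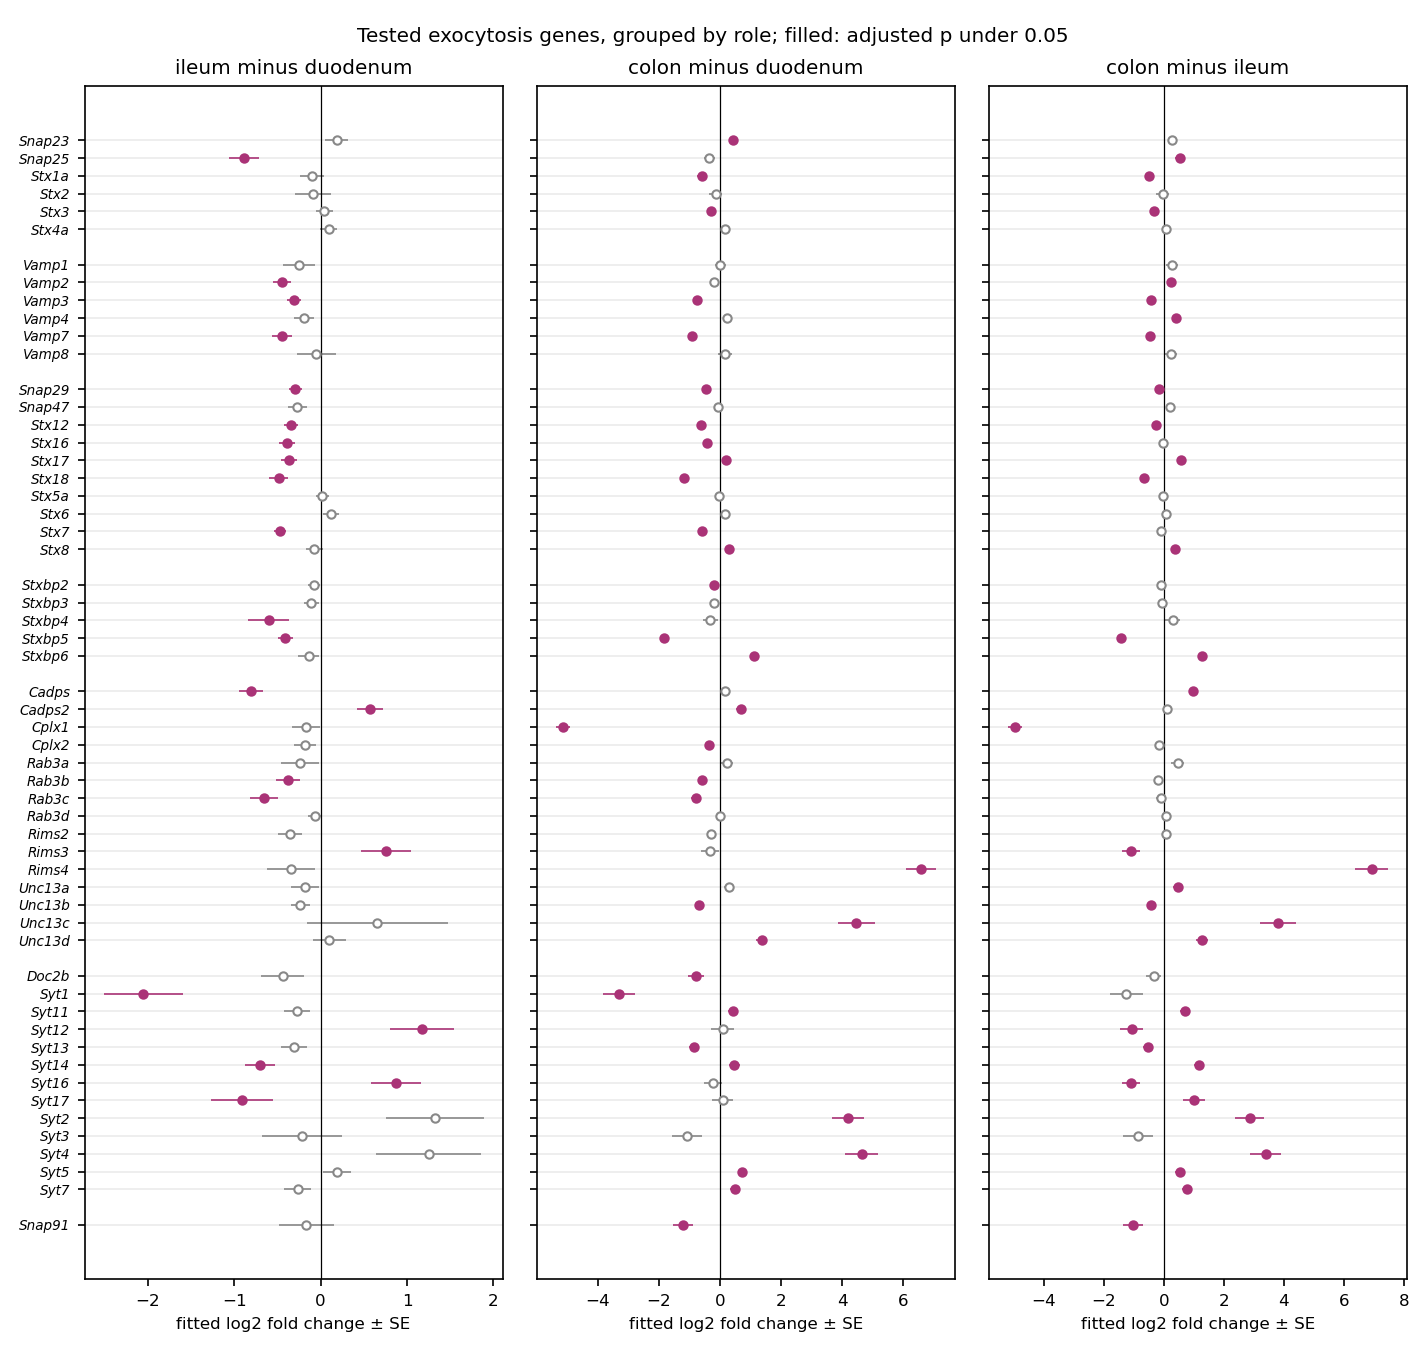
Fitted log2 fold change ± SE of tested members in the 3 region contrasts, averaged over the surgery groups and grouped by role, with filled points for an adjusted p under 0.05. Cplx1 (-5.14), Syt1 (-3.30) and Stxbp5 (-1.84) lie lowest in colon against duodenum, and Rims4 (6.58), Syt4 (4.64), Unc13c (4.47) and Syt2 (4.18) highest.

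The complexins gave the largest fall. Cplx1 (ENSMUSG00000033615, chr5:108518554-108550024 on the minus strand of GRCm38), a clamp best known from fast synapses, was present in every duodenum library at 17.6 to 63.2 CPM (median 40.9) and in every ileum library at 22.1 to 52.2 CPM (median 32.9). In colon it ran from 0 to 2.79 CPM (median 1.06), with 119 counts in all 16 libraries together. No colon library reached the lowest library of the other regions. The log2 fold change was -5.14 ± 0.23 (SE) for colon against duodenum (edgeR, adjusted p = 7.12e-24, lower in 15 of 15 mice) and -4.97 ± 0.23 against ileum (edgeR, adjusted p = 5.76e-23, lower in 16 of 16 mice). With the index term they were -4.22 and -4.74, and within one index colon against ileum gave -5.04. Cplx2 ran from 105 to 431 CPM (median 342) in duodenum, from 190 to 434 CPM (median 288) in ileum and from 173 to 414 CPM (median 233) in colon, so that its regions overlapped. Its colon against duodenum value was -0.35 ± 0.13 (edgeR, adjusted p = 0.0198), was not called without S_wm mouse 16 or 29 or VSG mouse 30, and turned to 0.45 with the index term (edgeR, adjusted p = 0.241). Cplx1 made up 21.97 ± 2.44% of the complexin level per kilobase in duodenum and 21.6 ± 3.6% in ileum, but 1.17 ± 0.96% in colon. The family in colon was thus Cplx2 for 98.5 ± 1.1%.

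The promoter of Cplx1 is shown because this gene had the most complete loss among the members, beside that of Unc13c, a rare priming factor found here mainly in colon. Both are the 250 bases before the start site in the RefSeq promoter table (GRCm38.p6), read on the gene's own strand 5′ to 3′. Cplx1 lies at chr5:108550028-108550277 on the minus strand with 64.8% G and C, and Unc13c at chr9:73969038-73969287 on the minus strand with 58.8%. Neither held a motif that was searched, so neither has capitals.
Cplx1: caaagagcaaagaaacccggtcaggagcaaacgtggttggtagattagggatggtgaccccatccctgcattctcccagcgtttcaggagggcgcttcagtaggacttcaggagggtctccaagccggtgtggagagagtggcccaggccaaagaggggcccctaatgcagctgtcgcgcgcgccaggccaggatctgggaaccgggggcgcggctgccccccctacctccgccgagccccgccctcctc
Unc13c: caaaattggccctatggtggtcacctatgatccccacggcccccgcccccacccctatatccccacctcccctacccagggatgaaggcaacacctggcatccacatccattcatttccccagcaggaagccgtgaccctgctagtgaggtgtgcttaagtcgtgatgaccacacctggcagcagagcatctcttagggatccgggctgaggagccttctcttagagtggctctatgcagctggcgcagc

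Among the SNAREs of the plasma membrane, Snap25 was the one that differed most. It is the target-membrane SNARE of regulated secretion (ENSMUSG00000027273, chr2:136713453-136782428, plus strand). Snap25 ran from 22.6 to 155 CPM (median 124) in duodenum, from 40.2 to 121 CPM (median 61.0) in ileum and from 49.1 to 168 CPM (median 85.1) in colon. Ileum was the lowest region, though the ranges overlapped. It was lower in ileum than in duodenum by a log2 fold change of -0.89 ± 0.17 (edgeR, adjusted p = 5.93e-05, lower in 14 of 15 mice). Colon stood above ileum by 0.55 ± 0.17 (edgeR, adjusted p = 0.00731, higher in 14 of 16 mice). Under the index term the ileum against duodenum value was -0.22 (edgeR, adjusted p = 0.779), while colon against ileum held at 0.65 (edgeR, adjusted p = 0.0216). Within one index colon against ileum was 0.52 and not called (edgeR, adjusted p = 0.192).

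Stx1a, the syntaxin that pairs with Snap25, was instead lowest in colon. It ran from 11.7 to 62.4 CPM (median 41.3) in duodenum, 25.8 to 56.9 CPM (median 36.3) in ileum and 11.9 to 39.6 CPM (median 25.5) in colon. Colon fell below ileum by a log2 value of -0.50 ± 0.14 (edgeR, adjusted p = 0.00295, lower in 15 of 16 mice) and below duodenum by -0.60 ± 0.14 (edgeR, adjusted p = 0.000325, lower in 13 of 15 mice). With the index term neither call held, and the value against duodenum turned to 0.31 (edgeR, adjusted p = 0.499). Stx3, the apical syntaxin of epithelial cells, was also lower in colon than in ileum (-0.34 ± 0.10, edgeR, adjusted p = 0.00411), a call that the index term ended. Snap23, the widely expressed counterpart of Snap25, was higher in colon than in duodenum by 0.44 ± 0.13 (edgeR, adjusted p = 0.0039), with -0.17 under the index term (edgeR, adjusted p = 0.698).

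Vamp2, the vesicle SNARE that completes the neuronal complex, followed Snap25 in being lowest in ileum. Its medians were 80.3 CPM in duodenum, 56.9 CPM in ileum and 65.4 CPM in colon, with overlapping ranges of 36.3 to 107, 43.3 to 80.01 and 41.2 to 93.2 CPM. Ileum was below duodenum by a log2 value of -0.45 ± 0.11 (edgeR, adjusted p = 0.000702), a call lost with the index term, and was higher in colon than in ileum by 0.25 ± 0.11 (edgeR, adjusted p = 0.0489), which 12 of 17 fits that left out 1 mouse did not call. Vamp3 and Vamp7, which serve recycling endosomes and lysosome-related membranes, were lower at each step from duodenum to colon. Vamp3 had medians of 59.7, 49.6 and 35.3 CPM and Vamp7 of 29.8, 21.6 and 15.99 CPM. Both differences also passed the test between colon and ileum within one index, at -0.45 for Vamp3 and -0.65 for Vamp7. The 6 members called lower at each step were Snap29, Stx12, Stx18, Stxbp5, Vamp3 and Vamp7, against 5.19% of all genes tested. For Stxbp5 the step from duodenum to ileum was -0.17 with the index term and not called (edgeR, adjusted p = 0.602). Within one index, only Vamp7 of the 6 was called in that step (-0.75, edgeR, adjusted p = 0.0313). For Snap29 the step from ileum to colon, -0.17 ± 0.074 (edgeR, adjusted p = 0.0487), was not called by DESeq2, with the index term or in 14 of 17 fits that left out 1 mouse, and for Stx12 it was not called with the index term (edgeR, adjusted p = 0.111). Of the 10 Golgi and endosome SNAREs, 6 were lower in ileum than in duodenum, against 16.6% of all genes, and none higher, against 17.2%. The index term ended 3 of these 6 calls, those of Stx16, Stx17 and Stx18. Snap91, which is no SNARE, was lower in colon than in duodenum by a log2 value of -1.20 ± 0.33 (edgeR, adjusted p = 0.00187), a call that the index term ended. Stx18, a syntaxin of the endoplasmic reticulum, had medians of 32.5, 24.1 and 16.2 CPM, and its colon against duodenum value was -1.17 ± 0.11 (edgeR, adjusted p = 1.66e-12).

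The syntaxin-binding proteins parted in direction. Stxbp5 (tomosyn, ENSMUSG00000019790, chr10:9755547-9901079, minus strand), which binds target SNAREs in place of a Vamp and restrains fusion, ran from 103 to 198 CPM (median 170) in duodenum and from 85.0 to 172 CPM (median 129) in ileum. In colon it ran from 33.5 to 62.6 CPM (median 43.8), so every colon library lay below every other library. The log2 fold change of colon was -1.84 ± 0.089 against duodenum (edgeR, adjusted p = 3.03e-23) and -1.43 ± 0.089 against ileum (edgeR, adjusted p = 5.11e-19). It was -1.61 and -1.45 with the index term and -1.51 within one index. Stxbp6 (amisyn), another SNARE-binding inhibitor, moved the other way, from 4.64 to 15.3 CPM (median 10.02) in duodenum and 5.45 to 12.5 CPM (median 9.82) in ileum to 16.5 to 32.9 CPM (median 22.8) in colon. Its colon values again did not overlap the others. The change was 1.25 ± 0.12 against ileum (edgeR, adjusted p = 2.01e-12, higher in 16 of 16 mice) and 1.33 with the index term.

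Of the priming factors, Cadps was lowest in ileum and Cadps2 lowest in duodenum. Both prime dense-core vesicles. Cadps ran from 44.9 to 182 CPM (median 142) in duodenum, 51.0 to 116 CPM (median 74.4) in ileum and 86.0 to 231 CPM (median 152) in colon. Cadps2 ran from 61.8 to 167 CPM (median 83.2), 84.0 to 234 CPM (median 111) and 107 to 217 CPM (median 145). Cadps was higher in colon than in ileum by a log2 value of 0.97 ± 0.14 (edgeR, adjusted p = 6.54e-08, higher in 16 of 16 mice), which was 1.02 with the index term and 0.77 within one index. Its fall from duodenum to ileum, -0.81 ± 0.14 (edgeR, adjusted p = 6.17e-06), was -0.020 with the index term (edgeR, adjusted p = 0.981).

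In the Unc13 family, Unc13a and Unc13b had shares within their spread of each other in the small intestine, and Unc13a led in colon. Unc13a, the form of excitatory synapses and beta cells, gave 44.9 ± 7.3% of the family level per kilobase in duodenum, 45.3 ± 7.0% in ileum and 48.6 ± 8.3% in colon. Its CPM medians were 40.8, 36.1 and 48.4. Unc13a was higher in colon than in ileum by 0.48 ± 0.16 (edgeR, adjusted p = 0.0127), and by 0.37 within one index (edgeR, adjusted p = 0.385). Against duodenum colon was at 0.29 ± 0.16 (edgeR, adjusted p = 0.120), and at 1.26 with the index term (edgeR, adjusted p = 0.00762). Unc13b fell from 43.9 ± 5.6% and 42.01 ± 5.38% to 24.04 ± 3.53%, with CPM medians of 70.7, 58.6 and 43.7, and its colon against duodenum value of -0.68 was -0.18 with the index term (edgeR, adjusted p = 0.617). Unc13d, the form that primes lytic granules of immune cells and that epithelia also express, was at 0.971 to 5.46 CPM (median 3.25) in duodenum, 0.974 to 5.71 CPM (median 3.58) in ileum and 4.98 to 11.8 CPM (median 8.80) in colon. It rose by 1.27 ± 0.19 from ileum to colon (edgeR, adjusted p = 1.44e-07, higher in 16 of 16 mice), by 1.22 with the index term and by 1.32 within one index. By their medians the summed immune, enterocyte, Paneth and crypt markers were lowest in colon, and goblet, colonocyte and serotonin cell markers were highest there. The part of these cells in the rise of Unc13d was not tested. Unc13c had 13 counts in duodenum, 17 in ileum and 229 in colon, where 15 of 16 libraries held it at up to 6.00 CPM (median 1.66). It rose by 3.81 ± 0.61 against ileum (edgeR, adjusted p = 6.4e-07) and by 4.04 with the index term.

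Rims2, a scaffold that ties Rab3 vesicles to release sites, made up nearly all of its family in the small intestine. Its share per kilobase was 95.2 ± 2.7% in duodenum, 91.1 ± 4.8% in ileum and 80.7 ± 8.6% in colon. The level of Rims2 itself, with medians of 88.6, 67.9 and 72.5 CPM, was called in no region contrast by edgeR with all libraries. Without the duodenum library of mouse 27 it was lower than in duodenum in ileum (-0.44, edgeR, adjusted p = 0.00162) and in colon (-0.35, edgeR, adjusted p = 0.00663), and DESeq2 with all libraries called it in ileum (adjusted p = 0.041). Rims4, a short member of the family, held 15.1 ± 8.5% in colon. Rims4 (ENSMUSG00000035226, chr2:163859751-163918683, minus strand) had 6 counts in 6 of 16 duodenum libraries, 13 counts in 2 of 16 ileum libraries and 613 counts in colon, where every library held it at 2.20 to 12.3 CPM (median 4.73). The colon values did not overlap those of the other regions. Its mean was 128-fold higher in colon than in duodenum and 53.2-fold higher than in ileum, or 136-fold without the ileum library of mouse 27, and the edgeR value against duodenum was 6.58 ± 0.49 (adjusted p = 6.99e-15). Within one index colon against ileum gave 4.25 (edgeR, adjusted p = 0.000806). Rims1, the large scaffold of synapses, had 58 counts in 10 colon libraries and none elsewhere. Of these, 25 lay in S_al mouse 13 and 12 in S_al mouse 19. When 0 counts are set to 3 over the group, colon is at least 25.2-fold higher than duodenum and at least 19.03-fold higher than ileum. These bounds are for counts pooled over the colon libraries and rest largely on those mice. Rims3 was highest in ileum (median 4.38 CPM against 2.98 in duodenum and 2.29 in colon), and was higher there than in duodenum by 0.75 ± 0.29 (edgeR, adjusted p = 0.0376). Within one index this was 1.35 (edgeR, adjusted p = 0.02395), but the call was lost with mouse as a fixed block (edgeR, adjusted p = 0.165), with a random block in voom, with the index term (edgeR, adjusted p = 0.112) and in 10 of 17 fits that left out 1 mouse.

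Of the Rab3 GTPases, which tether vesicles through Rims proteins, Rab3a and Rab3d were called in no region contrast. Rab3b and Rab3c were called higher in duodenum than in both other regions. For Rab3b the ileum against duodenum value of -0.37 turned to 0.24 with the index term (edgeR, adjusted p = 0.677). Mouse as a fixed block (edgeR, adjusted p = 0.0699) or as a random block in voom also ended that call. So did 9 of 17 fits that left out 1 mouse. Its colon against duodenum value of -0.58 turned to 0.15 with the index term (edgeR, adjusted p = 0.794). Rab3d, the form of exocrine and other secretory granules, ran from 88.8 to 218 CPM (median 190) in duodenum, 140 to 205 CPM (median 182) in ileum and 159 to 220 CPM (median 186) in colon. The ranges overlapped throughout, and the largest of its 3 region contrasts was -0.068 ± 0.078. Rab3a, the synaptic form, had medians of 5.21, 4.58 and 6.44 CPM and 3.17 to 4.27% of the family level per kilobase. Rab3c was highest in duodenum at 59.1 to 356 CPM (median 238), against medians of 153 in ileum and 128 in colon, and with the index term its value was 0.055 in ileum against duodenum (edgeR, adjusted p = 0.951) and 0.052 in colon against duodenum (edgeR, adjusted p = 0.939).

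The synaptotagmins held the largest group of colon-high members. Of the 13 tested synaptotagmin and Doc2 members, 7 were higher in colon than in ileum, against 23.8% of all genes, and 3 lower, against 25.4%. Syt7 ran from 96.2 to 580 CPM (median 431) in duodenum, 176 to 617 CPM (median 375) in ileum and 374 to 955 CPM (median 569) in colon. Colon was highest with some overlap, and above ileum by 0.77 ± 0.16 (edgeR, adjusted p = 6.1e-05, higher in 16 of 16 mice), with 0.87 under the index term and 0.69 within one index (edgeR, adjusted p = 0.0593, not called). Exons of Syt7 (ENSMUSG00000024743, chr19:10389090-10453180, plus strand) overlap a gene on the other strand, as do those of 12 tested members in all, Unc13a, Rab3a and Syt4 among them, and whether the counting used strand was not given in the sources used here. Syt5 rose in the same way, with medians of 44.3, 48.4 and 67.2 CPM. Syt13, an atypical member that does not bind calcium and is known from endocrine cells, fell from a median of 182 CPM in duodenum and 137 CPM in ileum to 92.1 CPM in colon. Its colon against ileum value was -0.55 ± 0.15 (edgeR, adjusted p = 0.00227), -0.54 with the index term and -0.70 within one index. Against duodenum colon was at -0.86, and at -0.20 with the index term (edgeR, adjusted p = 0.740). In shares of the synaptotagmin level per kilobase, Syt7 went from 42.7 ± 4.1% and 41.4 ± 5.0% to 53.7 ± 3.4%, and Syt13 from 35.0 ± 3.5% and 32.7 ± 5.5% to 16.5 ± 2.7%.

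Rare synaptotagmins separated the ends of the gut. Syt1, the fast sensor of synapses, was held by all 16 duodenum libraries at 1.44 to 6.13 CPM (median 3.36), by 13 ileum libraries at up to 2.79 CPM (median 0.405) and by 10 colon libraries at up to 1.86 CPM (median 0.157). It was -3.30 ± 0.51 in colon against duodenum (edgeR, adjusted p = 2.87e-07, lower in 14 of 15 mice), and -1.64 with the index term (edgeR, adjusted p = 0.324). Syt4, a vesicle form that does not drive fast release, had 26 counts in duodenum, 53 in ileum and 620 in colon, where it ran from 0.418 to 19.1 CPM (median 4.24). Syt2, the sensor of fast synapses in brainstem and muscle, had 31, 54 and 393 counts, with 0.5999 to 10.8 CPM (median 3.201) in colon. Colon was above ileum by 3.39 ± 0.51 for Syt4 (edgeR, adjusted p = 1.81e-07) and by 2.86 ± 0.48 for Syt2 (edgeR, adjusted p = 2.18e-06), and by 2.63 and 2.39 with the index term. Against duodenum neither call held with that term (edgeR, adjusted p = 0.170 and 0.213). Syt10 had 20 counts in 6 colon libraries, 10 of them in S_al mouse 13, and none elsewhere. Syt8 had 49 counts in colon, 5 in duodenum and none in ileum.

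Because Rims4, Rims1, Unc13c, Syt2 and Syt4 are all known from neurons, markers of enteric neurons and glia were read beside them. Elavl3, an RNA-binding protein of neurons, moved with them, with means of 2.01 CPM in duodenum, 1.197 CPM in ileum and 19.8 CPM in colon. Chat was at 0.195, 0.156 and 1.15 CPM. The glial markers Sox10 and S100b had 16 and 11 counts in colon. The sum of the 7 markers, most of it Ret, ranged from 38.2 to 224 CPM in duodenum, 60.6 to 162 CPM in ileum and 47.7 to 155 CPM in colon. Their part in the results was not tested.

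**Figure D3:**
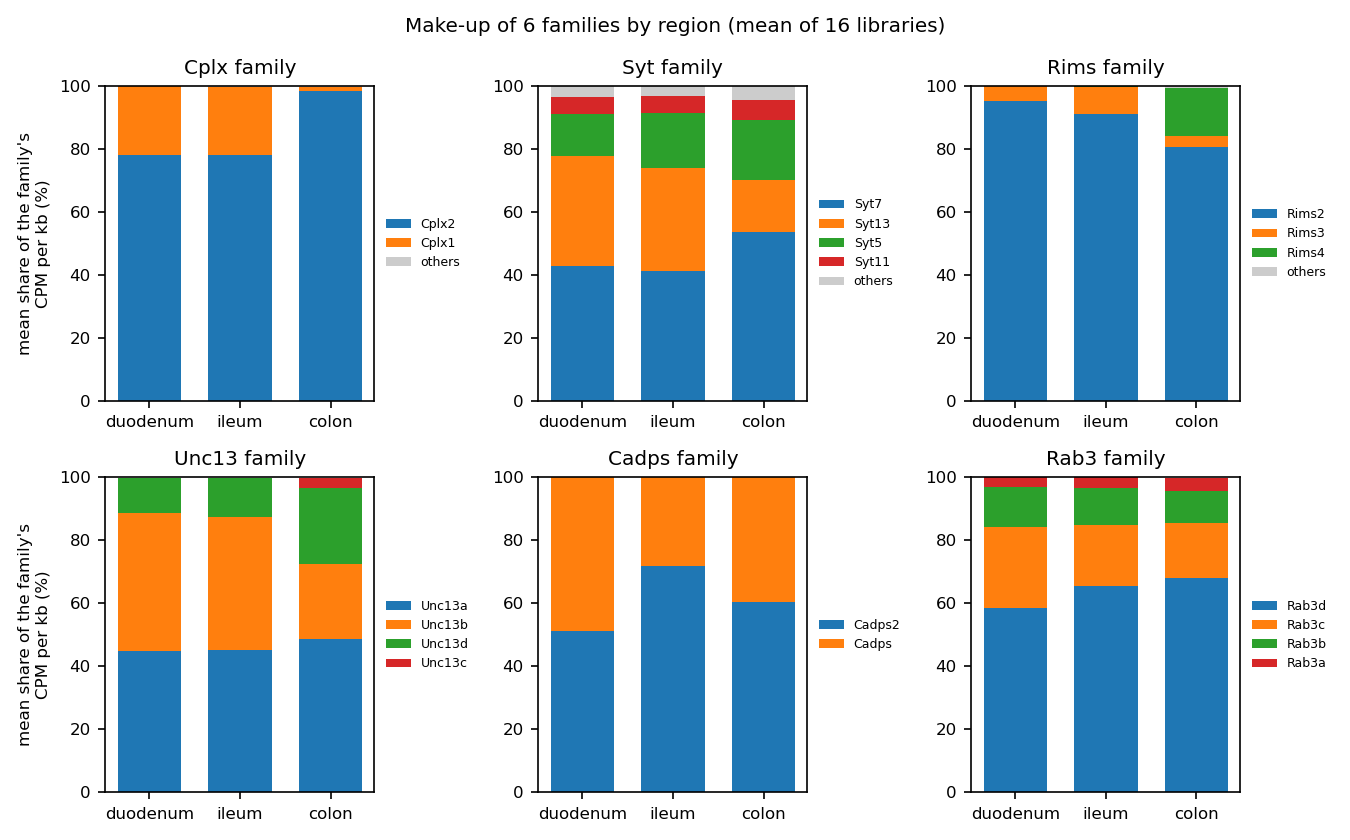
Stacked bars of the mean share (percent, 16 libraries per region) of each member in its family's summed CPM per kilobase, for 6 families. Cplx1 shrinks from 21.97% of the complexins in duodenum to 1.17% in colon, Syt7 grows to 53.7% of the synaptotagmins and Rims4 to 15.1% of the Rims genes.

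Within one library the ratio of related members needs no scaling between libraries, and 8 pairs were compared per kilobase. Most set a form best known from neurons over one known from other cells. Cplx2 over Cplx1 is no such pair, since Cplx1 is best known from fast synapses. Rab3d exceeded Rab3a in all 48 libraries, and Vamp2 exceeded Vamp8, Cplx2 exceeded Cplx1 and Unc13a exceeded Unc13d in all 48. The Cplx2 to Cplx1 log2 ratio was 1.83 ± 0.20 in duodenum, 1.87 ± 0.31 in ileum and 6.93 ± 1.68 in colon (0.5 counts added). Colon exceeded duodenum by 5.19 ± 1.68 (SD over 15 mice), and in every mouse, with an adjusted p of 0.000732 in an exact two-sided sign-flip permutation test adjusted over 24 tests, whose unadjusted p of 6.1e-05 was the smallest that 15 mice allow. The Snap25 to Snap23 ratio was 1.88 ± 1.09 in duodenum, 0.77 ± 0.57 in ileum and 1.03 ± 0.75 in colon. It was lower in ileum than in duodenum by a mean of -1.06 in 14 of 15 mice (exact permutation test, adjusted p = 0.0306). Leaving out a mouse ended this call in 9 of 17 cases, with adjusted p up to 0.0592. The pair ratios were not tested with the index term or within one index, so region and index cannot be told apart in them. With that term Snap25 itself was -0.22 in ileum against duodenum and not called.

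Other pairs also differed between regions. Cadps to Cadps2 was -0.10 ± 0.76 in duodenum, -1.40 ± 0.61 in ileum and -0.64 ± 0.56 in colon, so that Cadps2 exceeded Cadps in all 16 ileum libraries. The fall from duodenum to ileum was -1.23 (exact permutation test, adjusted p = 0.00732, in 14 of 15 mice). With the index term the edgeR values for this contrast were -0.020 for Cadps and 0.14 for Cadps2, neither of them called. Unc13a to Unc13d was 2.12 ± 0.90, 1.94 ± 0.79 and 1.04 ± 0.66, lower in colon than in duodenum by a mean of -1.0 (exact permutation test, adjusted p = 0.00586, in 13 of 15 mice). The Stx1a to Stx3, Vamp2 to Vamp8 and Rab3a to Rab3d ratios passed in no region contrast. In all, 2 of 8 pairs passed between ileum and duodenum, 4 in colon against duodenum and 4 in colon against ileum.

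**Figure D4:**
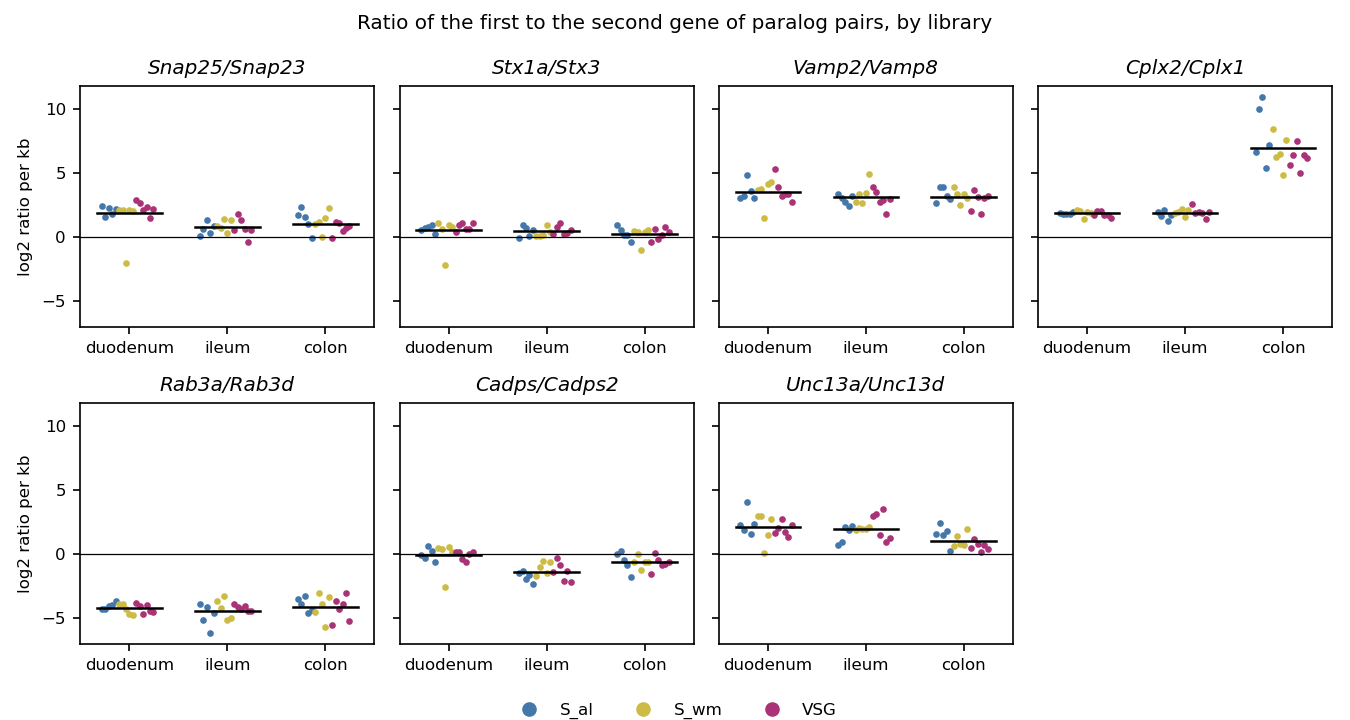
Log2 ratio per kilobase of related members in each library (1 point each, coloured by surgery group), by region, with the mean of 16 libraries as a line. The mean of the Cplx2 to Cplx1 ratio is 1.83 in duodenum and 6.93 in colon, and the Rab3a to Rab3d ratio is below 0 in every library.

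Motifs were looked for in the promoters because the cells were sorted through Neurod1 and because many exocytosis genes are known targets of the silencer REST. The RefSeq table held 66 promoters of 54 of the 72 members, each from 250 bases before to 50 bases after a start site, among 32851 in all. Both strands were searched. The NeuroD1-type E-box CAGATG stood in 8 member promoters (12.1%), against 17.2% of all promoters. CAGCACC, from one end of the REST element, stood in 6 (9.09%, against 7.14%), and GGACAGC, from the other end, in 5 promoters of 3 genes (7.58%, against 6.56%). These shares lie close to those of all promoters. Unc13a was the one member gene with both in one window. They are shown in capitals, read on the gene's strand where both are reverse complements (GCTGTCC and GGTGCTG), in the first 30 transcribed bases at chr8:71671728-71671757 on the minus strand.
Unc13a: gtcaggcGCTGTCCgcgcccccGGTGCTGa

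The Syt10 promoter is shown because its gene had counts in colon alone. It lies at chr15:89841861-89842110 on the minus strand, with CAGCACC in capitals 133 bases before the start site.
Syt10: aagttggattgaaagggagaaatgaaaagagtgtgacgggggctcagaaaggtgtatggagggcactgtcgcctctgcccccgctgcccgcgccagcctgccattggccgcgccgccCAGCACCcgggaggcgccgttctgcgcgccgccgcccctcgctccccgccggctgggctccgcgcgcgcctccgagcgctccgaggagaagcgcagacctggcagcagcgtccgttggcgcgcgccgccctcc

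With all libraries edgeR called no member between the surgery groups. Averaged over the regions, edgeR's quasi-likelihood test called 0 of 57 members between VSG and S_al, where 0% of all genes were called. It also called 0 between VSG and S_wm, against 0.245% of all genes, and 0 between S_wm and S_al, against 0.0529%. At an unadjusted p under 0.05 there were 1, 3 and 2 members, against 5.53%, 9.92% and 6.39% of all genes. Within single regions no member was called in any of 9 contrasts, of which VSG against S_wm called 0.225% of all genes in duodenum, 0.0463% in ileum and 0.0595% in colon and S_wm against S_al 0.0132% in colon, and none was called in the test of surgery by region, where 0% of genes passed. DESeq2 called 1 member within regions (Snap23 in duodenum) and none elsewhere. Syt7, the most abundant sensor, differed between VSG and S_al by 0.028 ± 0.15 and Snap25 by -0.11 ± 0.17 on the log2 scale over the regions. In colon Vamp2 was -0.45 for VSG minus S_al (edgeR, adjusted p = 0.777), and the summed enteroendocrine markers there had a median of 47390 CPM in VSG and 65600 CPM in S_al. In ileum Syt7 was 0.59 for the same contrast (edgeR, adjusted p = 0.783). A missed threshold does not show that the groups were alike.

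The 3 members of lowest p in each contrast had adjusted p between 0.118 and 1, and the lowest were followed by mouse. In duodenum Snap23 was at 16.2, 16.2, 18.3, 22.6 and 57.5 CPM in the S_wm mice, the highest being mouse 27, at 13.03 to 18.3 CPM in the 6 VSG mice and at 16.5, 18.3, 19.6, 22.6 and 24.9 CPM in the S_al mice. VSG thus overlapped both sham groups. VSG minus S_wm was -0.76 ± 0.22 (edgeR, adjusted p = 0.118), and -0.26 ± 0.18 without the library of mouse 27, which the DESeq2 call included. Stx4a, a syntaxin of the basolateral membrane, had means of 19.5, 19.8 and 21.6 CPM in the VSG mice (duodenum, ileum and colon), 22.2, 25.3 and 26.4 CPM in S_wm and 21.97, 23.1 and 23.05 CPM in S_al. Its VSG minus S_wm value over the regions was -0.27 ± 0.096 (edgeR, adjusted p = 0.275). Rab3c was -0.39 ± 0.16 for VSG minus S_al (edgeR, adjusted p = 0.732). Rims4 in ileum was held by 2 S_wm mice (1.13 and 0.653 CPM) and by no mouse of the other groups, with 13 counts in all, and VSG minus S_wm there had an adjusted p of 0.258 in edgeR. Of the 8 pair ratios none differed between VSG and S_al or S_wm, with differences from -0.46 to 0.28 and every adjusted p at 0.948 in an exact permutation test over mice (16 tests, smallest p possible 0.00216).

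**Figure D5:**
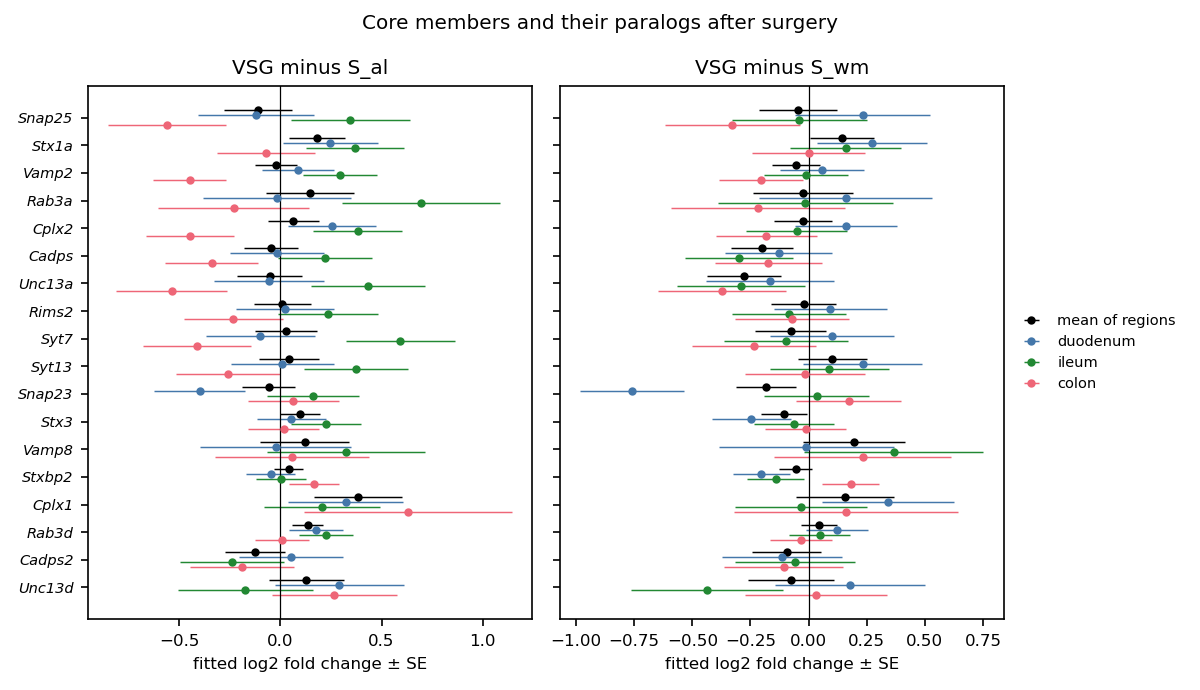
Fitted log2 fold change ± SE of core members and pair partners for VSG against S_al and against S_wm, over the regions and within each region. No value passed the adjusted threshold, and the lowest point is Snap23 in duodenum against S_wm (-0.76, or -0.26 without the library of mouse 27).

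The members were also read in the duodenum library of mouse 27, which had fewer enteroendocrine and more enterocyte markers. Of the 57 tested members, 31 lay below the range of the other 15 duodenum libraries, 11 above it and 15 within it. Among those below were Snap25 at 22.6 CPM (others 75.8 to 155), Vamp2 at 36.3 (57.8 to 107), Cplx2 at 105 (245 to 431) and Syt7 at 96.2 (275 to 580). Above were Cadps2, Snap23, Snap29, Stx12, Stx3, Stx4a, Stxbp2, Stxbp3, Syt12, Vamp3 and Vamp8. Snap23 stood at 57.5 CPM (others 13.03 to 24.9), Stx3 at 118 (42.5 to 70.0) and Stxbp2 at 111 (58.1 to 77.3). Without this library 29 members were called between ileum and duodenum in place of 22, and 37 between colon and duodenum in place of 35.

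The other genes of the pathway, a list of 68 drawn up with earlier results known, were read beside the members. Of 66 tested, 24 were higher in colon than in duodenum, against 26.8% of all genes, and 21 lower, against 28.3%, and 0 were called between surgery groups. Values with the index term or within one index are not given for these genes, so region and index cannot be told apart in them. In the synaptotagmin-like and Rab27 group, which docks granules, Rab27a, Rab27b, Sytl1, Sytl2 and Sytl4 were higher in colon than in both other regions. Sytl5 was not called in either contrast with colon, and Sytl3 was lower in colon than in ileum (-1.51 ± 0.56, edgeR, adjusted p = 0.0221). Sytl2 had means of 8.93, 22.2 and 66.7 CPM in duodenum, ileum and colon, Sytl4 of 1.78, 3.19 and 10.7 CPM and Rab27b of 26.7, 39.4 and 85.8 CPM. Lower in colon was Stxbp5l, the relative of Stxbp5, at 209, 129 and 18.9 CPM (colon against duodenum -3.46 ± 0.23, edgeR, adjusted p = 3.01e-17). Slc18a2, a vesicle monoamine transporter, fell as well, at 37.0, 13.1 and 1.41 CPM, and so did the calcium sensor Scgn, at 121, 103 and 26.2 CPM. The other transporter of this kind, Slc18a1, was at 328, 264 and 305 CPM and was not called (colon against duodenum -0.098 ± 0.13, edgeR, adjusted p = 0.552).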

How the data were processed

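RNA from sorted enteroendocrine cells was sequenced (SMARTer stranded total RNA kit, single-end). The deposited file holds raw counts per gene, which the authors made with STAR 2.5.1 on GRCm38 (CASAVA is also named in the submitters' processing notes). The strand setting of the counting was not given in the sources used here. Of 53465 gene IDs, 53360 matched a symbol in GENCODE M21, which also gave exon lengths and coordinates. The members and lists were chosen with earlier results of these data known.

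Counts were fitted with edgeR 4.0.16 (quasi-likelihood test, TMM scaling on full totals, low-count filter by group, 15126 genes) in R 4.3.3 as 9 groups of surgery and region, with Benjamini-Hochberg adjustment over all genes and a threshold of 0.05. Region contrasts were averaged over the surgery groups and surgery contrasts over the regions. Each standard error is the size of the log2 fold change over the root of its F statistic. Libraries of 1 mouse entered as separate samples, as in the study's own model. Mice were separate animals by their numbers in the labels, which also pair the regions: 26 of 46 same-mouse library pairs had correlated deviations above 0.1 (median 0.105), and the fit with mouse as block is in the closing section. The lowest chi-square per gene among 105 library pairs of a group was 8.14, so no library was a copy. Pair ratios used counts per kilobase plus 0.5 and exact permutation tests in Python 3.11.15 (sign flips over mice for regions, mice exchanged between groups for surgery). A count of 0 was set to a floor of 3 counts over the group for lower bounds. This covers counting error only.

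Named were the core members and their pair partners, the 5 largest called changes each way per region contrast, the 3 lowest p per surgery contrast, and members near 0. Other members named by example were chosen after their values were seen. Alternatives were DESeq2 1.42.0, its size factors, no filter or a stricter one (10 counts), limma 3.58.1 with voom and mouse as block, the library index as covariate, and leaving out mice or libraries. Comparisons within one index were added after the data were seen. The scripts were tested on simulated data. Protein sequences were not used here, and members without an entry in the promoter table were not searched for motifs. A few members, a pair and a marker are counted but not reported here by name.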

Additional observations from a re-analysis of the deposited data

Results flagged for a closer look

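For 10 core members, each group of 5 or 6 libraries was checked for a lowest or highest library far from the rest (Dixon's test at 95%). This picked out 7 of 90 groups, where chance picks about 1 in 20. Of these, 4 were the S_wm duodenum library of mouse 27, which was the lowest of 5 for Stx1a at 11.7 CPM (others 39.0 to 48.5), Cadps at 44.9 CPM (166 to 182), Rims2 at 20.2 CPM (91.4 to 116) and Syt13 at 44.4 CPM (167 to 193). The same library had 12040 CPM of enteroendocrine markers. Vamp2 was at 41.2 CPM in the VSG colon library of mouse 25, below 59.1 to 65.8 CPM in the rest of its group. Rims2 was at 42.3 CPM in the S_al colon library of mouse 32, below 83.6 to 91.5 CPM. Syt13 was at 276 CPM in the VSG ileum library of mouse 18, above 111 to 157 CPM.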

How the results depend on the processing

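The library index changed most. With it as a covariate, 6 members in place of 22 were called between ileum and duodenum (5 of them shared) and 21 in place of 35 between colon and duodenum (17 shared). Within one index, 3 of 51 were called between ileum and duodenum (805 of 13162 genes) and 12 of 52 between colon and ileum (3641 of 13406 genes), with fewer libraries. The index covariate turned the direction of 4 called members between ileum and duodenum, Syt17 (0.31), Syt12 (-0.13; -0.098 within one index), Rab3b (0.24) and Rab3c (0.055), and of 6 between colon and duodenum, Stx1a (0.31), Cplx2 (0.45), Snap23 (-0.17), Rab3b (0.15), Rab3c (0.052) and Doc2b (0.25). The cause was not tested, and these fits kept the duodenum library of mouse 27. With mouse as a replicate block, 19, 35 and 34 members were called in the ileum to duodenum, colon to duodenum and colon to ileum contrasts, and 20, 36 and 33 with a random block in voom. No surgery call appeared under the random block. The fixed block could not test surgery, since the surgery groups hold different mice. Without pairing by mouse, 2, 4 and 4 pair ratios differed. DESeq2 called 25, 36 and 34 members between regions and 1 member between surgery groups within regions (Snap23, VSG against S_wm in duodenum, adjusted p = 0.045). Leaving out S_wm mouse 16, 29 or 31 also gave that 1 call in edgeR (each with the duodenum library of mouse 27 kept, without which the value was -0.26), so the range over mice was 0 to 1. Leaving out each mouse gave 18 to 29 members between ileum and duodenum (29 without mouse 27), 32 to 36 in both contrasts with colon, and 0 in every other surgery contrast. Pair ratios numbered 1 to 4, 3 to 6 and 3 to 4. Between ileum and duodenum 4 pairs passed without the duodenum library of mouse 27 and 1 without the ileum and colon libraries of mouse 12. Over all settings 2927 comparisons of named members kept their direction and side of the threshold, 92 lost the call and 32 gained one. Another 48 changed direction with no call in either fit, and 6 changed direction with a call in at least 1 of the fits. Members under about 1 CPM rest on few counts, and with 5 or 6 mice a group, small surgery differences could be missed.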

Other observations

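Other members varied widely between libraries of a region. Syt12, a member without calcium binding, ran from 0.149 to 14.6 CPM (median 1.10) in duodenum, 0.320 to 9.66 CPM (median 4.94) in ileum and 0.372 to 4.11 CPM (median 1.92) in colon, and the 14.6 CPM was again the library of mouse 27. Syt16 had medians of 2.51, 4.20 and 1.68 CPM, and was higher in ileum than in duodenum by 0.87 ± 0.29 (edgeR, adjusted p = 0.0152). This call was lost with the index term (0.95, edgeR, adjusted p = 0.362) and within one index (0.70, edgeR, adjusted p = 0.413). Syt14 had medians of 23.9, 13.2 and 28.7 CPM, and its colon against ileum value was 1.18 ± 0.18 (edgeR, adjusted p = 2.17e-07). Doc2b, a calcium sensor of spontaneous and beta-cell release, ran from 3.89 to 57.9 CPM in duodenum, 7.46 to 72.8 CPM in ileum and 5.94 to 38.0 CPM in colon.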
